A study of Mus musculus with 19 samples.

Results

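The inhibitors and enzymes that set the rate of matrix breakdown outside the cell were followed in fibroblasts of the mouse peritoneum. They were 3 tissue inhibitors of metalloproteinases (Timp1, Timp2 and Timp3), 5 matrix metalloproteinases (Mmp2, Mmp3, Mmp11, Mmp14 and Mmp19) and Fap, fibroblast activation protein. They were chosen by symbol, as the members of these families listed for study, with earlier results of these data known. All 9 were found among the 12799 genes of the count table. Fibroblasts had been sorted from dissociated peritoneum of C57BL/6 mice that carry a yellow fluorescent protein under the promoter of Col1a1, a fibrillar collagen gene. Tumour-bearing mice had received tdTomato-marked ID8 cells, a mouse ovarian carcinoma line, into the peritoneal cavity in 200 µL of PBS, and the normal group had received 200 µL of PBS alone. There were 5 normal, 5 day 7, 5 day 28 and 4 end stage libraries, each 1 biological replicate by its label. All 4 groups share the transgene, the dissociation and the sort, and the sort takes whichever cells have an active Col1a1 promoter. The end stage libraries carry the numbers 2 to 5. The labels state no day for the end stage.

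Matrix metalloproteinases are zinc enzymes that are made as inactive precursors and cut collagens, laminins, growth factor carriers and each other once the precursor part is removed. TIMPs bind the active site and block it, so that the balance of both families sets how much matrix is cut. TIMP2 has a further role, since a complex of TIMP2 and the membrane enzyme MMP14 holds the MMP2 precursor at the cell surface, where a neighbouring free MMP14 activates it. FAP is a serine peptidase of another family, which cuts after proline and is widely used as a marker of activated fibroblasts in tumours.

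Depth was low and differed between libraries. The total count of a library lay between 66061 and 2449339, with group medians of 304626 in normal, 313890 for day 7, 172313 for day 28 and 378400 for the end stage, and 3 libraries, 2 of day 28 and 1 of the end stage, held under 150000. Levels of single genes are given as CPM, counts scaled to a common library size, with library sizes adjusted by TMM, a normalization that sets the bulk of genes equal between libraries. They are compared for 1 gene between libraries and not between genes. A gene with 0 counts may still be present at up to 3 counts, which was 45.2 CPM in the shallowest library and 1.23 CPM in the deepest. All 10 fibroblast markers checked, among them collagen and Pdgfra transcripts, were detected in every group, with summed levels of 31800 ± 4200 CPM in normal, 38300 ± 4120 for day 7, 37500 ± 11800 for day 28 and 37000 ± 5360 for the end stage (SD, n = 5, 5, 5 and 4). Marker sums, here and below, are CPM of the library total without the TMM adjustment.

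Promoter sequences were available from RefSeq (GRCm38.p6) for 6 of the 9 genes, each with 250 bases before and 50 after the annotated start. The windows of Timp1 (chrX:20869916-20870215, plus strand), Timp2 (chr11:118355362-118355661, minus strand) and Mmp3 (chr9:7445572-7445871, plus strand) are shown, the first pair because their transcripts had the smallest p-values of the tested members at the end stage and Mmp3 because its promoter held different motifs from the rest. Capitals mark matches to the motifs searched on both strands, the AP-1 site TGANTCA, the TATA box TATAAA and the GC box GGGCGG bound by Sp1.
Timp1: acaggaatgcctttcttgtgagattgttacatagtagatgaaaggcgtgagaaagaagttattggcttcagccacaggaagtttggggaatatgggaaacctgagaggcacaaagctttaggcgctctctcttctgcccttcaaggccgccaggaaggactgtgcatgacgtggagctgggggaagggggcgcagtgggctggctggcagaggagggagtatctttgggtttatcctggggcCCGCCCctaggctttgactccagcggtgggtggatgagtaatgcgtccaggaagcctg
Timp2: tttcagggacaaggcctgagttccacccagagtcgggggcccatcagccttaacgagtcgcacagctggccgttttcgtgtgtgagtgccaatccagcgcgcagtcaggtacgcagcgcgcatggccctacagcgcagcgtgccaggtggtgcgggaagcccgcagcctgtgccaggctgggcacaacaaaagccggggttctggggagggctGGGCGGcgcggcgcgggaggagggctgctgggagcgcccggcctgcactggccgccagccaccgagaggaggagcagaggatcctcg
Mmp3: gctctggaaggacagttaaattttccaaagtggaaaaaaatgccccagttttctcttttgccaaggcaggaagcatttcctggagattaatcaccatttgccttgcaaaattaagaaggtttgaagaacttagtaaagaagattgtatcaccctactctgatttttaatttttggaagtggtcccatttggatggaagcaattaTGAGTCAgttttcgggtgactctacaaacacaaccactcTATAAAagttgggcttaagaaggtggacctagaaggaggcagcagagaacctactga
The Timp1 window held 1 GC box, on the minus strand with its first base at position -8 from the start, and the Timp2 window held 1 at -37 on the plus strand. In Mmp3 there was an AP-1 match at -46 and a TATA box at -7, with no overlap between them. Of the 6 promoters, 5 held a GC box, 1 an AP-1 match and 1 a TATA box. Among all 32851 promoters of the same length, 35.7% held a GC box, 7.81% an AP-1 match and 13.6% a TATA box. A match describes the letters and is not evidence of binding.

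Timp1, which encodes a secreted inhibitor of most soluble metalloproteinases, was the gene of the set that rose, and it did so at the end stage against day 7. End stage libraries had 104, 124, 229.7 and 138 CPM, against 49.9, 35.5, 22.5, 37.2 and 16.6 CPM at day 7. Every end stage library stood above every day 7 library, as was so for 1.76% of the 5980 genes tested. Normal libraries had 49.1, 51.4, 3.90, 29.9 and 53.8 CPM, and day 28 libraries had 0, 44.8, 70.4, 117 and 16.7 CPM. The end stage thus did not overlap normal either (higher in this way for 1.77% of genes), whereas 1 day 28 library, at 117 CPM, lay above the lowest end stage library. Underlying counts were small outside the deepest library, with 32, 51, 562 and 16 counts at the end stage against 9, 9, 38, 30 and 5 at day 7. Normal libraries had 9, 40, 1, 12 and 18 counts, and day 28 libraries 0, 4, 12, 23 and 7. Since the libraries are bulk samples, more cells of a type and more RNA per cell cannot be told apart.

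**Figure D1:**
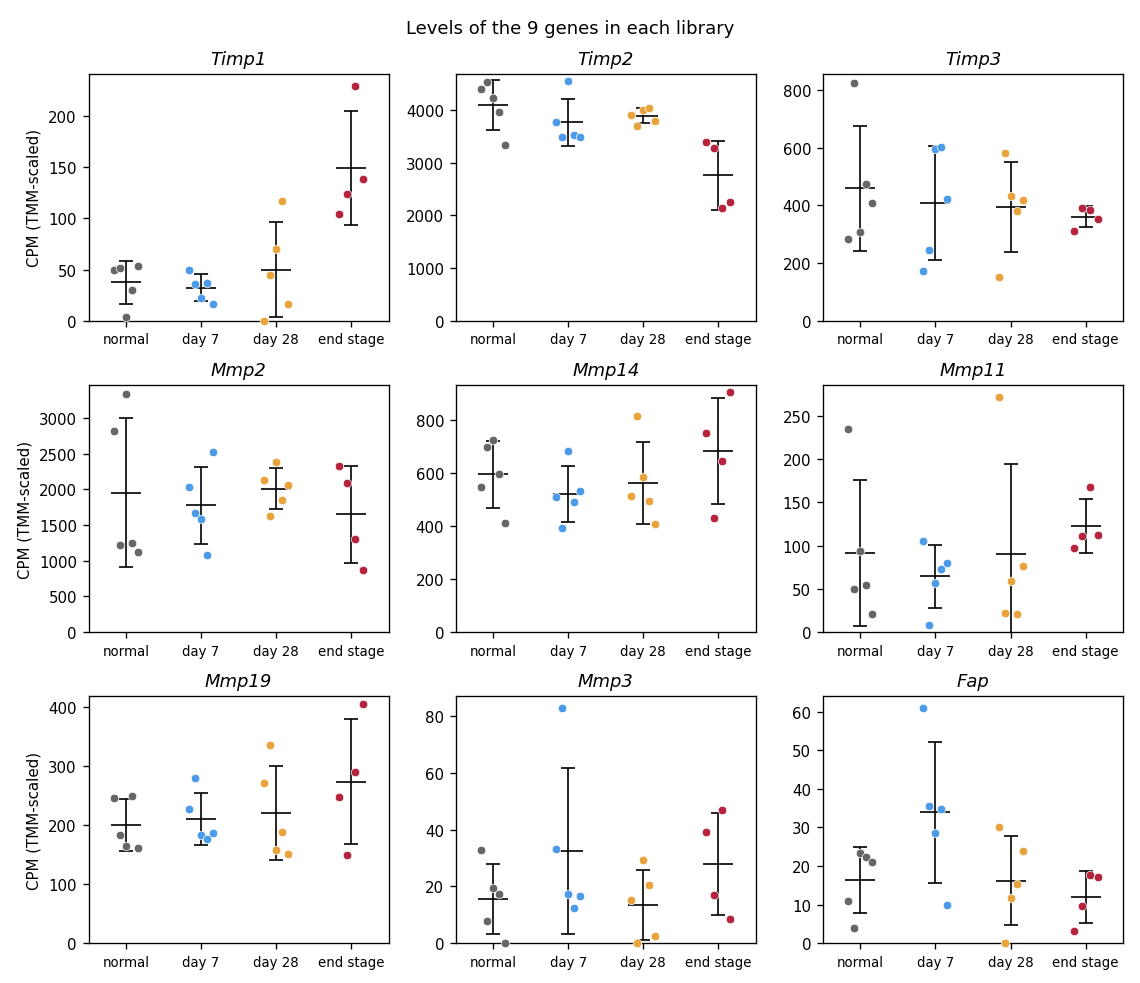
CPM of each of the 9 genes (vertical axis, a scale of its own in each panel) in every library, by group from normal to end stage. Points are libraries, and bars show the mean and SD of each group, with bars that would pass below 0 cut at 0. Timp1 stood at 104 to 229.7 CPM at the end stage, and Timp2 at 2139 to 3383.

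In the fit over 5980 genes, Timp1 was higher at the end stage than at day 7 by a log2 fold change of 2.30 ± 0.48 (SE), a 4.92-fold difference, with an adjusted p of 0.0227 by edgeR's quasi-likelihood test. The joint test of any difference among the 4 groups gave an adjusted p of 0.0229. The difference from normal, 1.97 ± 0.47, missed the threshold of 0.05 with an adjusted p of 0.0544 by the same edgeR test, although DESeq2 gave 0.0193 and limma-voom with quality weights 0.0207. In the authors' deposited table, the values were 1.97 with an adjusted p of 0.0367 for the end stage against normal and 2.27 with 0.00722 against day 7. Against day 28, the end stage differed by 1.53 ± 0.50 (adjusted p = 0.223, edgeR). Group means followed the order 32.3 ± 13.1 CPM for day 7, 37.6 ± 21.1 in normal, 49.8 ± 46.2 for day 28 and 149 ± 55.6 for the end stage (SD, n = 5, 5, 5 and 4), and no neighbouring pair in this order differed beyond the threshold. The call against day 7 was lost without the deepest library, end stage 4 (1.96, adjusted p = 0.173 by edgeR), and without day 7 library 2 (0.068), 3 (0.128) or 4 (0.0831). The value against normal passed the threshold without end stage library 2 or day 28 library 1, 4 or 5, at adjusted p of 0.0258 to 0.0373 by edgeR, and stood at 1.65 with 0.365 without end stage 4.

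Markers of other cells in the same libraries are given beside this result. Of 12 macrophage markers, 11 were in the table, and their summed level was 121 to 476 CPM at the end stage, against 48.8 to 73.3 CPM at day 7 and 64.5 to 127 CPM in normal. Day 28 libraries had 11.9 to 302 CPM. Mrc1, a macrophage lectin receptor, was at 0 in every day 7 library, and Adgre1, Mrc1 and Tyrobp were at 0 in every day 28 library. Day 28 was also the group with the lowest median depth, at 172313 counts. End stage library 4, the deepest, had 1165 counts over all 11 markers. End stage libraries 2, 3 and 5 had 39, 67 and 30 counts, over 7, 7 and 8 of the markers. Of the 11, only 2 passed the filter and were tested, the complement genes C1qa and C1qb, which macrophages express strongly. Both passed the edgeR test at the end stage against day 7, where 0.468% of all genes were called. Their log2 fold changes were 2.96 ± 0.64 (adjusted p = 0.0263) and 3.97 ± 0.93 (adjusted p = 0.0481). Summed markers of mural cells, all 8 in the table, were 227 to 371 CPM at the end stage, 107 to 274 at day 7 and 127 to 263 in normal. Erythrocyte markers, 5 of 5, were 62 to 1570 CPM at the end stage, 172 to 504 at day 7 and 59.6 to 151 in normal. Of the 4 that were tested, 1 was called higher at the end stage against normal by edgeR, where 0.401% of all genes were called. Immediate-early genes, which dissociation can induce, summed to 24000 to 37400 CPM at the end stage, 31600 to 45200 at day 7 and 33100 to 50600 in normal over 28 genes. Of the 23 that were tested, 1 was called lower at the end stage against normal by edgeR. In 5 of them every end stage library lay below every normal one, as for 1.4% of all genes. Against day 7, 19 of the 23 had a negative log2 fold change at the end stage, with a median of -0.44 beside -0.003 over all genes. None of the 23 was called by edgeR there, and in 4 every end stage library lay below every day 7 one, as for 1.54% of all genes. Mesothelial markers, 11 of 12 in the table, summed to 288 to 636 CPM at the end stage, 230 to 836 at day 7 and 581 to 1410 in normal. Of the 8 that were tested, 7 had a negative log2 fold change at the end stage against normal, with a median of -0.86 beside -0.02 over all genes. None of the 8 was called by edgeR, and 4 had an unadjusted p below 0.05, as did 421 of all 5980 genes. Against day 7 the median of the 8 was -0.14. The part of these transcripts in the Timp1 difference was not tested.

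**Figure D2:**
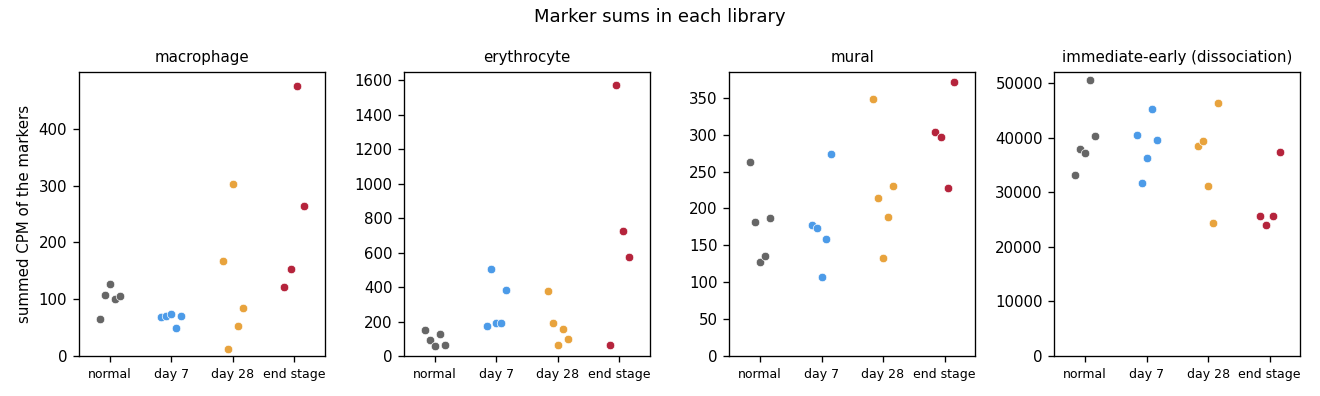
Summed CPM, without the TMM adjustment, of the macrophage, erythrocyte, mural and immediate-early marker lists (vertical axis, a scale of its own in each panel) in each library, by group from normal to end stage. Points are libraries. Macrophage sums at the end stage were 121 to 476 CPM, above the 48.8 to 73.3 CPM at day 7.

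Timp2, the inhibitor that also takes part in MMP2 activation, had its lowest levels at the end stage, but no comparison passed the edgeR test. End stage libraries had 3383, 3268, 2139 and 2244 CPM, against 4391, 4532, 4224, 3957 and 3329 CPM in normal, so that 1 end stage library lay above the lowest normal one. Day 7 libraries had 3762, 3482, 4547, 3532 and 3486 CPM and day 28 libraries 3905, 3703, 4000, 4037 and 3798 CPM. All end stage libraries were below all day 7 libraries, as for 1.54% of genes, and below all day 28 libraries, as for 0.853% of genes. Means were 4087 ± 475 CPM in normal, 3762 ± 454 for day 7, 3888 ± 139 for day 28 and 2758 ± 658 for the end stage (SD, n = 5, 5, 5 and 4).

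By edgeR's quasi-likelihood test, the Timp2 log2 fold change was -0.57 ± 0.20 for the end stage against normal (adjusted p = 0.291), -0.45 ± 0.20 against day 7 (adjusted p = 0.575) and -0.49 ± 0.20 against day 28 (adjusted p = 0.36). DESeq2 called the difference from normal, with -0.58 and an adjusted p of 0.0434. The authors' deposited table gives -0.577 with 0.0662 for it. That adjusted p is within the authors' own threshold of 0.1, but the fold change is just short of the 0.58 they also require. Counts for Timp2 were high, from 259 to 7683 in a library.

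Timp3, an inhibitor that stays bound to the matrix, had 284 to 823 CPM in normal, 172 to 603 for day 7, 151 to 582 for day 28 and 312 to 393 for the end stage. The groups overlapped in every comparison. Its end stage against normal value was -0.37 ± 0.34, and none of its 6 pairwise comparisons passed the edgeR test. The coefficient of variation was 47.2% in normal, 48.5% for day 7, 39.5% for day 28 and 10.1% for the end stage.

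Because Timp1 and Timp2 lay in opposite directions, their counts were set against each other within each library, where library size cancels. Per 1000 Timp2 counts there were 30.8, 37.8, 107 and 61.5 Timp1 counts at the end stage, against 11.2, 11.4, 0.924, 7.55 and 16.2 in normal. Day 7 libraries had 13.3, 10.2, 4.95, 10.5 and 4.77, and day 28 libraries had 0, 12.1, 17.6, 29 and 4.4. The lowest end stage library was thus above the highest library of all other groups, at 29, by a small margin. Group means were 9.43 ± 5.66 in normal, 8.74 ± 3.74 for day 7, 12.6 ± 11.4 for day 28 and 59.4 ± 34.6 for the end stage (SD, n = 5, 5, 5 and 4). These ratios use the same counts as the tests above and are given as a description. Across the 19 libraries, log2 CPM of Timp1 and Timp2 had a Pearson correlation of -0.54, over libraries that differ in group and depth.

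**Figure D3:**
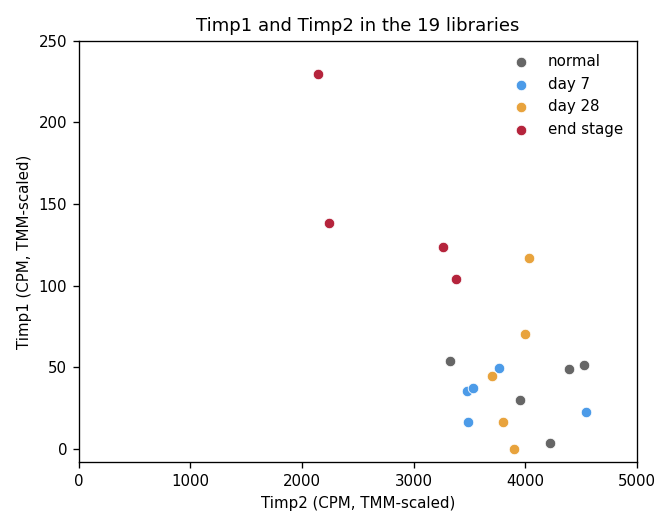
Timp1 CPM (vertical axis) against Timp2 CPM (horizontal axis), 1 point per library, marked by group. The 4 end stage libraries lie at 104 to 229.7 CPM of Timp1 and 2139 to 3383 CPM of Timp2, and 1 day 28 library reaches 117 CPM of Timp1.

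Mmp14, the membrane-anchored activator of MMP2, had 34 to 1578 counts in a library and passed no test. End stage libraries had 751, 429, 645 and 906 CPM, against 546, 697, 726, 595 and 409 CPM in normal. Day 7 libraries had 509.7, 391, 684, 489 and 532 CPM and day 28 libraries 513, 817, 587, 494 and 408 CPM. The groups overlapped. Log2 fold changes of the end stage were 0.18 ± 0.25 against normal, 0.37 ± 0.25 against day 7 and 0.28 ± 0.25 against day 28. Relative to the inhibitor, there were 222, 131, 301 and 404 Mmp14 counts per 1000 Timp2 counts at the end stage, against 123 to 172 in normal, 112 to 153 at day 7 and 107 to 221 at day 28. Of the 4 end stage libraries, 3 lay above all others, the lowest of them at 222 beside the day 28 library at 221. The remaining one, number 3 with 131, lay within the range of every other group. Timp2, the shared denominator, had its own lowest mean at the end stage, and other members also had their highest mean ratio there. Per 1000 Timp2 counts, Timp3 had 138 at the end stage beside 102 to 112 in the other groups, and Mmp2 582 beside 472 to 516. Mmp11 had 47.9 beside 17.2 to 23.1, and Mmp19 109 beside 49.3 to 57.2.

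Mmp2, the gelatinase that MMP14 and TIMP2 bring to the cell surface, had 1123 to 3342 CPM in normal, 1080 to 2526 for day 7, 1622 to 2387 for day 28 and 863 to 2336 for the end stage. The spread within groups exceeded the differences between their means of 1954, 1779, 2010 and 1649 CPM, in the same order. Its log2 fold changes were -0.24 ± 0.31 for the end stage against normal, -0.10 ± 0.31 against day 7 and -0.28 ± 0.31 against day 28. In normal the libraries themselves stood apart, with 2826 and 3342 CPM in a pair and 1123 to 1254 CPM in the remaining 3.

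Mmp11, a secreted enzyme also called stromelysin 3 that is activated inside the cell by furin, had 97.6, 112, 168 and 112 CPM at the end stage, against 105, 7.90, 56.2, 73.1 and 79.8 CPM at day 7. Of the end stage libraries, 3 lay above every day 7 library. The log2 fold change was 0.97 ± 0.62 with an unadjusted p of 0.132 in edgeR's quasi-likelihood test, and the end stage against normal value was 0.57 ± 0.62. Normal libraries ran from 20.9 to 235 CPM and day 28 libraries from 20.4 to 271 CPM, with coefficients of variation of 93.0% and 116%, the highest of the 7 tested genes in these groups. Mmp19, a secreted enzyme of basement membrane and cartilage substrates, had 161 to 249 CPM in normal, 176 to 280 for day 7, 150.4 to 336 for day 28 and 150.3 to 406 for the end stage. Its end stage against normal value was 0.42 ± 0.27, with overlap.

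Mmp3, stromelysin 1, whose human form activates other metalloproteinase precursors, lay below the filter on low counts, which asks for about 32.8 CPM in enough libraries. Normal libraries had 6, 6, 5, 7 and 0 counts and day 7 libraries 6, 21, 29, 10 and 5. Day 28 libraries had 1, 0, 5, 4 and 1 counts and end stage libraries 12, 7, 115 and 1. The groups overlapped, and the 115 counts came from the deepest library. Its promoter was the 1 of the 6 with the AP-1 and TATA letters. Mean levels were 15.5 ± 12.4 CPM in normal, 32.5 ± 29.3 for day 7, 13.4 ± 12.3 for day 28 and 27.9 ± 18.1 for the end stage (SD, n = 5, 5, 5 and 4). In a fit without the filter, over 12777 genes, the log2 fold change was 1.23 ± 0.62 for the end stage against normal (adjusted p = 0.702) and 1.09 ± 0.61 for day 7 against normal (adjusted p = 1, edgeR). Day 28 had the fewest counts, 11 in all 5 libraries together.

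Fap, also below the filter, had its highest mean at day 7. There were 11, 9, 48, 28 and 3 counts at day 7, against 2, 3, 6, 9 and 7 counts in normal. Day 28 libraries had 2, 0, 2, 3 and 10 counts and end stage libraries 1, 4, 43 and 2 counts. Scaled for depth, means were 16.3 ± 8.56 CPM in normal, 33.9 ± 18.3 for day 7, 16.2 ± 11.6 for day 28 and 11.9 ± 6.84 for the end stage (SD, n = 5, 5, 5 and 4). At day 7, 4 of 5 libraries, with 28.4 to 60.9 CPM, were above all normal libraries, and the last had 3 counts. In the unfiltered fit, day 7 against normal was 1.06 ± 0.55 (adjusted p = 1, edgeR), and end stage against day 7 was -1.34 ± 0.58 (adjusted p = 0.522, edgeR). Neither passed, and the highest end stage level, 17.6 CPM, lay above the lowest at day 7, 9.97 CPM.

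**Figure D4:**
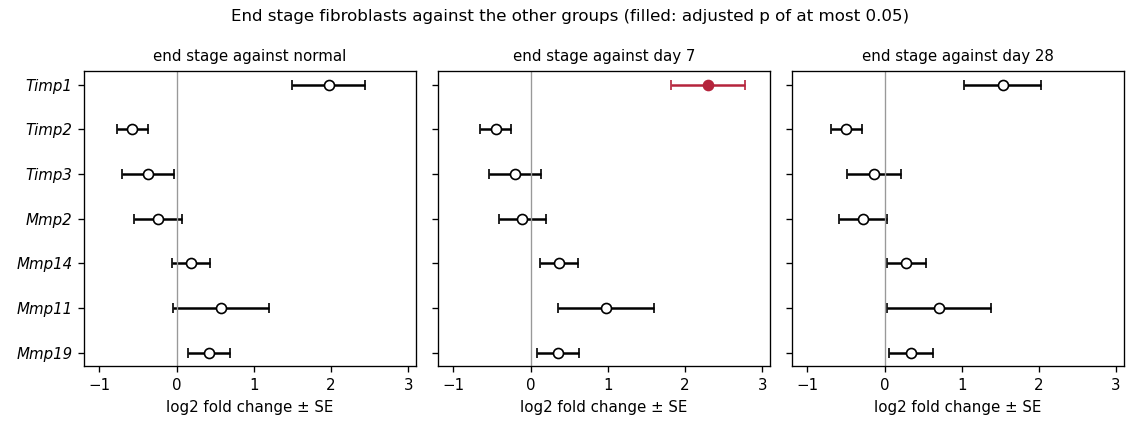
Log2 fold changes (horizontal axis) of the 7 tested genes at the end stage against normal, day 7 and day 28, 1 panel each, with bars of 1 SE and filled points for calls. Timp1 lies at 1.53 to 2.30 and Timp2 at -0.57 to -0.45, and the call that passed is Timp1 against day 7.

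As a set, 7 of the 9 genes passed the filter, and they cannot stand for the 2 that did not. At the end stage against day 7, 1 of the 7, Timp1, was called, where 0.468% of all 5980 genes were called (0.401% higher). Timp1 was also the 1 called in the joint test, in which 0.686% of all genes were called. At the end stage against normal and against day 28, none of the 7 was called by edgeR, where 0.401% of all genes were called in each. In each case 2 of the 7, Timp1 and Timp2, were below an unadjusted p of 0.05 in edgeR. Of all 5980 genes, 421 were below it against normal and 581 against day 28. DESeq2 called 2 of the 7 against normal and limma-voom 1, and neither tool called any of the 7 against day 28. Over all genes, DESeq2 called 49 and limma-voom 41 against normal, beside 24 by edgeR. Against day 28 they called 57 and 16, beside 24 by edgeR. For day 7 against normal, where 0.0502% of all genes were called, and for day 28 against normal and against day 7, where 0% were, edgeR, DESeq2 and limma-voom called none of the 7, and none had an unadjusted p below 0.05 by any of these tools. Over all genes, the 0 calls of day 28 against normal stood beside 422 genes with an unadjusted p below 0.05 in edgeR, and those against day 7 beside 538. DESeq2 also called 0 genes in both, and limma-voom 0 and 30.

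The median log2 fold change of the 7 was 0.36 at the end stage against day 7, beside a median of 0.00 over all 5980 genes. It was 0.18 against normal and 0.28 against day 28 at the end stage, beside -0.02 and -0.01 over all genes. In each of these end stage comparisons, 4 of the 7 had a positive log2 fold change and 3 a negative one. For day 7 against normal the median was -0.17 beside -0.02, for day 28 against normal -0.08 beside -0.02, and for day 28 against day 7 0.09 beside -0.01. Groups without overlap were found for Timp1 and Timp2 at the end stage against day 7, for Timp1 against normal and for Timp2 against day 28. Among all genes, such separation upward occurred in 1.76% against day 7 and 1.77% against normal, and downward in 1.54% against day 7 and 0.853% against day 28. The comparisons of the end stage share its 4 libraries.

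**Figure D5:**
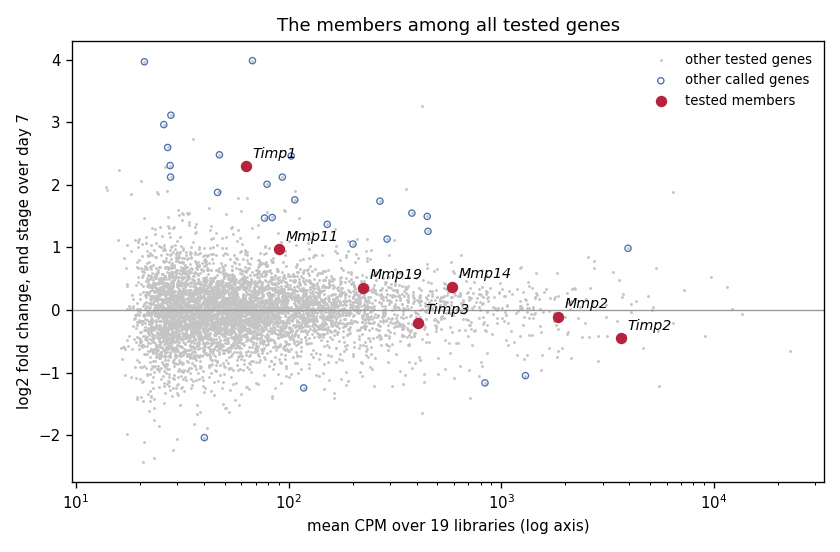
Log2 fold change of the end stage against day 7 (vertical axis) against mean CPM (horizontal axis, log scale) for the 5980 tested genes, with the 7 tested members named. Timp1 lies at 2.30, among the few called genes, and the other 6 members lie between -0.45 and 0.97.

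Few other genes of the protease system were called. Of 18 other metalloproteinase genes listed, 3 were in the table and 1, Mmp23, a membrane-tethered enzyme, was tested, with an end stage against normal value of 0.25 ± 0.27. Of 19 genes that regulate metalloproteinases, 15 were tested and none was called in any comparison. At the end stage against normal, 7 of the 15 had a positive log2 fold change and 8 a negative one. Among them, Reck, a membrane-anchored inhibitor of MMP2, MMP9 and MMP14, had -0.68 ± 0.28 (adjusted p = 0.476, edgeR), with every end stage library below every normal one, as for 1.4% of all genes. Reck at the end stage, at up to 104.1 CPM, also lay below every day 7 library, from 114.5 CPM, as for 1.54% of all genes. Spock2, a matrix proteoglycan of the testican family, had -1.18 ± 0.35 (adjusted p = 0.177, edgeR), and Cav1, the caveolar coat protein, -1.07 ± 0.47 (adjusted p = 0.606). Of 13 ADAM genes, 7 were tested and none was called, with Adam19 at -1.01 ± 0.48 and Adam33 at -1.13 ± 0.59 at the end stage against normal, and Adam17, the shedding enzyme that Timp3 inhibits, at 0.22 ± 0.31. Adam33 at the end stage, at up to 71.6 CPM, likewise lay below every day 7 library, from 75.55 CPM. Of 8 prolyl peptidase genes related to Fap, 2 were tested, Dpp7 at 0.44 ± 0.38 and Dpp9 at -0.08 ± 0.33, and neither was called.

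In the plasminogen system, which makes the protease plasmin and feeds into metalloproteinase activation, 7 of 11 genes were tested and 1 was called. At the end stage, 5 of the 7 had a positive log2 fold change against normal, 6 against day 28 and 3 against day 7. Serpine2, protease nexin 1, a secreted inhibitor of thrombin, urokinase and plasmin, had 61.8, 158, 292 and 173 CPM at the end stage, against 88.6, 43.4, 58.6, 85.5 and 36.6 CPM at day 7. Day 28 libraries had 90.5, 33.6, 76.2, 25.5 and 59.7 CPM, and normal libraries 49.1, 82.3, 62.5, 49.8 and 65.7 CPM. The lowest end stage library lay inside each of the other groups. Log2 fold changes were 1.48 ± 0.36 against day 7 (adjusted p = 0.0481), 1.66 ± 0.40 against day 28 (adjusted p = 0.0462) and 1.47 ± 0.36 against normal (adjusted p = 0.0544), all by edgeR, and the joint test gave an adjusted p of 0.0229. Without end stage library 4, the values fell short of the threshold, at 1.02 against day 7 (adjusted p = 0.528) and 1.21 against day 28 (adjusted p = 0.5). The calls against day 7 and against day 28 were each lost in 21 of the 27 alternatives run for them. Plaur, the urokinase receptor, was at 0.48 ± 0.54 against normal.

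Genes whose levels ran most like each tested member were ranked by Pearson correlation of log2 CPM over the 19 libraries, among the 3227 whose mean reached 50 CPM. Nearest to Timp1 were Pkig, an inhibitor of protein kinase A (0.84), Alyref, an mRNA export factor (0.77), and Col12a1, a fibril-associated collagen (0.77). Timp2 ran with Cd34, a progenitor surface protein (0.89), Clec3b, which encodes tetranectin (0.81), and Plpp3, a lipid phosphatase (0.80). Nearest to Mmp2 were Selenop (0.90), Lamp1 (0.88) and Ypel3 (0.88), and to Mmp14 the matrix genes Mfap2 (0.69), Col4a1 (0.68) and Fbln2 (0.67). For Timp3 they were Mbnl1 (0.83), Uap1 (0.82) and Tm9sf2 (0.80), for Mmp11 Hvcn1 (0.81), Ubald2 (0.79) and Slc44a2 (0.75), and for Mmp19 Lrp1 (0.82), an endocytic receptor that clears proteases, Eif4g1 (0.81) and Ptprf (0.79). Among the members themselves, Mmp14 and Mmp19 stood at 0.50, Timp2 and Mmp2 at 0.47 and Timp2 and Mmp19 at -0.49. These correlations are over libraries that share groups and differ in depth, and they describe these libraries.

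The strand setting of the counting is not given in the sources used here, and 5 members overlap other genes in GENCODE M21. Timp1 overlaps Syn1 on the opposite strand, which had 54 counts over all libraries and 30 at the end stage. Syn3 overlaps Timp3 on the opposite strand with 51 counts, and Cep295nl overlaps Timp2 on the same strand with 77. Chchd10 overlaps Mmp11 on the opposite strand with 265 counts, and Tmem198b overlaps Mmp19 likewise with 509. How reads in the shared stretches were assigned was not tested.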

How the data were processed

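Sorted peritoneal fibroblasts, 19 libraries in all, were profiled by MARS-seq, per the labels' protocols. Counts per gene and library are as the authors deposited them, and per the file headers the table also holds log2 fold changes and p-values of 6 comparisons, for which the submitters' processing notes name DESeq2 and the build GRCm39. The authors' deposited normalized values were not used. For the aligner, annotation, molecular identifiers and strand, the sources used here give nothing.

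Counts were tested with edgeR 4.0.16 in R 4.3.3 (TMM factors of 0.949 to 1.10, filterByExpr with a minimum count of 10, robust quasi-likelihood F test) in 1 model of 4 groups without covariates, with Benjamini-Hochberg adjustment over 5980 genes and a threshold of 0.05. Totals ran from 66061 to 2449339 counts, and the 3-count floor covers counting error only. The labels call each library a biological replicate. The SE is the log2 fold change over the square root of F. A prior count of 2 went into log2 CPM for correlations. Steps were tested on simulated data. Alternatives were DESeq2 1.42.0, limma-voom (limma 3.58.1), other scaling and filters, the groups compared alone, a replicate block and each library left out. Chosen after seeing the data were library size scaling, thinning to 66000 counts and leaving out 3 libraries under 150000 counts. Named beside the 9 members are the 3 genes of each list with the smallest p at the end stage against normal and any called one, and the 3 genes most like each member, without a gene withheld for evaluation. C1qa and C1qb were named after their values were seen. The members and lists were chosen with earlier results of these data known. Promoters are RefSeq's on GRCm38.p6, and overlaps come from GENCODE M21. Python 3.11.15, pandas 2.3.3, numpy 2.4.6 and matplotlib 3.10.9 were used.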

Additional observations from a re-analysis of the deposited data

Results flagged for a closer look

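Of 36 sets made of 1 gene in 1 group, 2 had a library far from the rest of its group by Dixon's ratio, where chance would be expected to mark about 1 set in 20. Timp2 stood at 4550 CPM in day 7 library 3, from 7683 counts, while the other day 7 libraries had 3480 to 3760 CPM. The gap was 0.737 of the group's range. Mmp11 stood at 271 CPM in day 28 library 1, the shallowest of all, from 18 counts, while the other day 28 libraries had 20.4 to 76.4 CPM, and the gap was 0.777 of the range.

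Timp1 differed between stages in its distance from normal, which was 1.97 on the log2 scale at the end stage and -0.33 at day 7. The difference between them, 2.30 ± 0.48 (SE), is the end stage against day 7 comparison, with an adjusted p of 0.0227 by edgeR's quasi-likelihood test, and all 4 end stage libraries lay above all 5 day 7 libraries. Over the alternatives in which Timp1 was tested, the adjusted p of this comparison ran from 0.000724 to 0.173.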

How the results depend on the processing

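Timp1 at the end stage against day 7 kept its sign in all 28 alternatives in which it was tested, at 1.96 to 2.44, and lost its call in 4, each leaving out 1 library. Thinning every library to 66000 counts left Timp1 below the filter, so it was not tested there. At the end stage against normal, Timp1 was called in 8 of 28 alternatives, at 1.65 to 2.15, and Timp2 in 1 of 29, DESeq2. Without the filter or in the 2 groups alone, the adjusted p of Timp1 against normal by edgeR was 0.0221 and 0.0441. Serpine2 against normal was called in 4 of 27, and Spock2 in 1 of 29, without end stage library 3 (-1.65, adjusted p = 0.0289 by edgeR). In the shallowest library a count of 0 allows up to 45.2 CPM, above the mean of Mmp3 and of Fap in every group. The cause of the changes below was not tested.

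The number of the 7 members called at the end stage against normal, 0, became 2 with DESeq2, 1 with limma-voom, 1 in the 2 groups alone and 1 without the filter. The 1 called against day 7 became 0 on thinning, and the 1 called in the joint test became 0 on thinning and 0 with the stricter filter. Leaving out 1 library gave 0 to 1 in each of these 3. Over all genes, the 3 called for day 7 against normal became 9 with limma-voom, 1 with the stricter filter, and 0 in the 2 groups alone, with the replicate block, with library size scaling, without the 3 shallow libraries and on thinning. Leaving out 1 library gave 0 to 3, with 0 in 16 of 19 cases. For day 28 against normal, the 0 became 0 to 1 on leaving out 1 library, with 1 without day 28 library 5. The 24 of the end stage against normal became 49 with DESeq2, 41 with limma-voom and 10 on thinning, and 3 to 41 on leaving out 1 library (41 without end stage 2, 7 without end stage 4, and 10, 3 and 15 without normal 3, 4 and 5). The 0 of day 28 against day 7 became 30 with limma-voom. The 24 of the end stage against day 28 became 57 with DESeq2, 9 without the 3 shallow libraries, 14 on thinning and 44 without the filter. Leaving out 1 library gave 5 to 53 there (37, 53, 5 and 14 without end stage 2 to 5, and 13, 7, 10 and 14 without day 28 library 1, 3, 4 and 5). The 28 of the end stage against day 7 became 59 with DESeq2, 130 with limma-voom, 18 without the 3 shallow libraries, 8 on thinning and 15 with the stricter filter. Leaving out 1 library gave 1 to 33 (1 without end stage 4; 13, 10, 6 and 6 without day 7 library 1 to 4; 17 and 14 without day 28 library 2 and 3; 15 and 18 without normal 4 and 5). The 41 of the joint test became 72 with DESeq2, 98 with limma-voom, 10 on thinning, 96 without the filter and 23 with the stricter filter, and 12 to 49 on leaving out 1 library (12 without end stage 4, 26 without day 7 library 3 and 26 without end stage 5).

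The labels do not say whether same-numbered libraries shared anything beyond the number. Over 27 pairs their deviations from group means correlated at -0.24 to 0.32, with 8 above 0.1, and 6 of 19 libraries correlated best with their own number. With the replicate block, 30 genes were called at the end stage against normal, 26 against day 28, 29 against day 7 and 46 jointly. The Serpine2 calls against day 28 and day 7 were lost with the block, at adjusted p of 0.07 and 0.0528 by edgeR. The Timp1 calls were not lost.

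Small uncalled differences changed sign. With limma-voom, day 28 against normal became -0.13 for Timp1, 0.19 for Mmp3, 0.17 for Mmp11 and -0.0079 for Mmp19. Day 7 against normal became 0.11 for Timp3, 0.13 for Mmp11 and -0.092 for Mmp19, and day 28 against day 7 -0.0067 for Timp2. The end stage against day 7 became 0.011 for Mmp2. DESeq2 gave -0.046 for Mmp3 at the end stage against day 7, and thinning -0.15. Thinning also gave -0.016 for Timp2 and 0.057 for Timp3 at day 28 against day 7. Without the filter, day 28 against normal became -0.026 for Mmp2 and -0.0065 for Mmp19, and day 28 against day 7 -0.049 for Timp2, -0.010 for Mmp14 and -0.076 for Mmp19. The replicate block gave 0.11 for Mmp3 at day 28 against normal and -0.0064 for Mmp19 at day 28 against day 7. Without the 3 shallow libraries, day 28 against normal became 0.059 for Mmp3 and -0.28 for Mmp19, day 28 against day 7 -0.22 for Mmp11, -0.080 for Mmp14 and -0.33 for Mmp19, and the end stage against day 7 0.11 for Mmp2.

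Leaving out 1 library moved day 28 against normal to values from -0.21 to 0.79 for Timp1, -0.39 to 0.096 for Timp3, -0.092 to 0.32 for Mmp2, -0.74 to 0.34 for Mmp3, -0.76 to 0.50 for Mmp11, -0.26 to 0.018 for Mmp14, -0.12 to 0.21 for Mmp19 and -0.30 to 0.28 for Fap. Day 7 against normal ran from -0.35 to 0.16 for Timp3, -0.29 to 0.14 for Mmp2, -0.66 to 0.24 for Mmp11 and -0.066 to 0.16 for Mmp19. Day 28 against day 7 ran from -0.23 to 0.13 for Timp3, -0.36 to 0.55 for Mmp11, -0.078 to 0.23 for Mmp14 and -0.19 to 0.15 for Mmp19. At the end stage, the values ran from -0.33 to 0.015 for Timp3 and -0.89 to 0.023 for Fap against day 28, from -0.31 to 0.096 for Mmp2 and -0.32 to 0.79 for Mmp3 against day 7, and from -0.44 to 0.041 for Mmp2 and -0.26 to 0.17 for Dpp9 against normal.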
